A study of Homo sapiens with 2 samples.

Results

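FHIT, WWOX and MACROD2 are 3 very long human genes that are known as sites of chromosome fragility. LSD2 ChIP-seq intervals were assigned to a gene when their midpoint lay between its ends on the hg19 build, with identical lines of the list counted once. FHIT (chr3:59735036-61237133) held 176 intervals, WWOX (chr16:78133551-79246564) held 197 and MACROD2 (chr20:13976146-16033842) held 297. Together these 670 intervals made up 0.181% of the 370863 distinct intervals in the list. The list came from HepG2 cells, a human line derived from a liver tumour, grown in high-glucose medium with serum and given no further treatment. The groups were LSD2 ChIP (1 library), precipitated with a rabbit polyclonal antibody against recombinant LSD2, and input (1 library), made without antibody. With 1 library for each, no value has a replicate error. The intervals after each value below cover counting error only and treat neighbouring intervals as independent, which they need not be. The list gives positions alone, so no interval can be ranked by height, and the sequencing depth behind it is unknown.

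Common fragile sites are regions that show gaps or breaks on metaphase chromosomes when DNA replication is slowed. Many lie in very long genes that replicate late, and parts of such genes are often deleted in cancer cells. FHIT encodes a hydrolase of diadenosine polyphosphates and spans the fragile site FRA3B. WWOX encodes an oxidoreductase with WW domains, which bind proline-rich peptides, and spans FRA16D. The gene table used here lists FRA3B and FRA16D as other names of FHIT and WWOX, and lists no fragile site name for MACROD2, which encodes a macrodomain hydrolase that removes ADP-ribose from proteins. LSD2, the product of KDM1B, is a demethylase of lysine 4 on histone H3 that has been described in the bodies of transcribed genes. A list of regions enriched over input can also depend on how many copies of a region the cells carry. Copy number was not measured here, and its part in the values below was not tested.

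The region just before each gene is shown because promoters are a common place to look for a histone demethylase. On hg19, none of the 3 stretches of 250 bases before the gene starts overlapped an interval, but the average density of each gene gives only 0.0548 overlaps for FHIT, 0.0852 for WWOX and 0.0689 for MACROD2, so these counts of 0 carry little information. The sequences are the 250 bases before the outermost RefSeq start of each gene on GRCh38.p14, read 5′ to 3′ on the strand of the gene and not placed on hg19, with each CG dinucleotide in capitals. FHIT runs on the minus strand, while WWOX and MACROD2 run on the plus strand.

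FHIT (chr3:61251453-61251702, minus strand): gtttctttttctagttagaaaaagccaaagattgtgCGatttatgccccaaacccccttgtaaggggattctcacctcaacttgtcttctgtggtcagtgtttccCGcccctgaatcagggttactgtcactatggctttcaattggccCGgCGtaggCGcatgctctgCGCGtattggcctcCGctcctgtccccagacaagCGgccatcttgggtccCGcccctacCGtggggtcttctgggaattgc

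WWOX (chr16:78099404-78099653, plus strand): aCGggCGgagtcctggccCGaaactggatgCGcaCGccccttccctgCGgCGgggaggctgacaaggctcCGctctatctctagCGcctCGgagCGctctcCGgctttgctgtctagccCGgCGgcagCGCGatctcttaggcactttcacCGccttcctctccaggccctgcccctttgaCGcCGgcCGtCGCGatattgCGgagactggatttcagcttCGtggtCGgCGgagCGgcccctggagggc

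MACROD2 (chr20:13995266-13995515, plus strand): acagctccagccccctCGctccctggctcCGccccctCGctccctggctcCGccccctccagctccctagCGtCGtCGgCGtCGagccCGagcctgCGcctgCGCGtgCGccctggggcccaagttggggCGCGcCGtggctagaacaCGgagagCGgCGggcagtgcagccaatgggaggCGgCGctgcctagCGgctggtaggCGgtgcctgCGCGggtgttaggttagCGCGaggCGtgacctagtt

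The FHIT sequence held 11 CG dinucleotides, equal to the median of 11 over 35116 RefSeq promoters of the same length, and 50.3% of these held at least as many. WWOX held 27, a number reached by 17.7% of promoters, and MACROD2 held 29, reached by 14.1%. RefSeq lists a further start inside FHIT and inside MACROD2, not printed here, and the 250 bases before each held 0. CG reads the same on both strands, so each pair was counted once. The TATAAA motif, searched on both strands, was in none of the 3 sequences and in 10.7% of all promoters.

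Around the 6 gene ends, placed by the hg19 positions, intervals were about as frequent within 10 kb as in the genes. Within 5 kb they were fewer and within 1 kb more, on small counts. Within 10 kb the ends held 20 intervals in all, against 17.5 at the average densities, within 5 kb they held 5, against 8.77, and within 1 kb they held 3, against 1.75. Any overlap was counted, but these averages leave out interval width, unlike those for the 250 bases above, so they are slightly low. No interval reached within 5 kb of the FHIT start, and the nearest lay 7.86 kb upstream (chr3:61244994-61245151). No interval reached within 5 kb of the MACROD2 start either, and the nearest lay 8.46 kb inside the gene (chr20:13984610-13984775). At the average density of each gene, a stretch of 5 kb on both sides would hold 1.17 intervals in FHIT and 1.44 in MACROD2, so 0 was a small departure for each. WWOX had 1 interval within 1 kb of its start, a 171 bp interval that began 969 bp inside the gene (chr16:78134520-78134690). At the far ends, the nearest interval lay 6.22 kb past the end of FHIT and 3.07 kb past that of WWOX. MACROD2 differed, with 2 intervals within 1 kb of its end against 0.289 at its average density, the nearer of which began 3 bp beyond the end (chr20:16033845-16034012). Counts of this size carry wide counting error, and no difference from the rest of the gene was tested at any of these ends.

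Set against their surroundings, the 3 genes did not form one class. WWOX was denser than its flanks, MACROD2 was sparser than its flanks but like its chromosome, and FHIT was on average slightly sparser than its chromosome. WWOX had 177 intervals per Mb (95% exact Poisson interval 153 to 204), against 123 over both of its 1 Mb flanks. The ratio was 1.44 (95% exact interval 1.19 to 1.74). FHIT had 117 intervals per Mb (100.5 to 136), against 128.5 in its flanks, a ratio of 0.91 (0.75 to 1.11). MACROD2 had 144 intervals per Mb (128 to 162), against 202.5 in its flanks, a ratio of 0.71 (0.61 to 0.83). The interval for WWOX lay above 1, that for MACROD2 lay below 1 and that for FHIT included 1. These error intervals are too narrow, as stated above, so their position relative to 1 is a description.

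The 2 flanks of a gene were often unlike each other, which sets how these ratios are read. FHIT lay between a flank of 161 intervals per Mb before its start and one of 96.0 after its end. Its density was 0.73 times the first (0.58 to 0.91) and 1.22 times the second (0.95 to 1.58), so the direction of the FHIT comparison depended on the side. WWOX was above both, at 1.36 times the flank before its start (1.09 to 1.71) and 1.53 times the flank after its end (1.21 to 1.94). MACROD2 was at 0.60 times the flank before its start (0.50 to 0.71), which had 242 intervals per Mb, the densest of the 6 flanks. Against the flank after its end, with 163 per Mb, the ratio was 0.89 (0.73 to 1.08). The neighbouring protein-coding genes in the gene table are CFAP20DC and PTPRG for FHIT, and SEL1L2 and KIF16B for MACROD2. For WWOX the preceding one is CLEC3A, and MAF overlaps its end in that table.

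**Figure D1:**
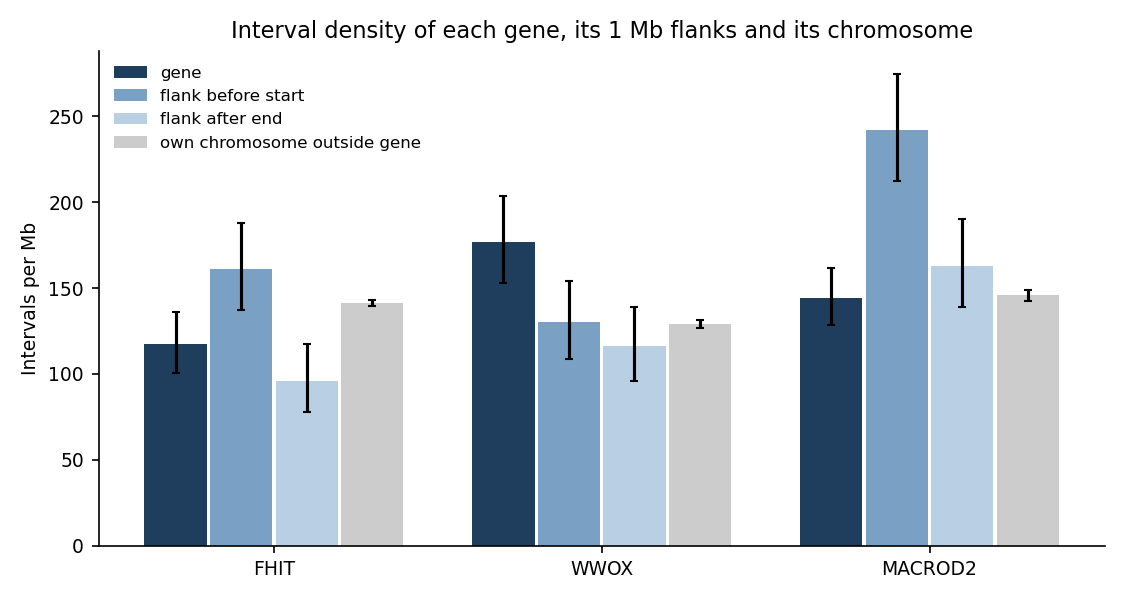
Intervals per Mb in each gene, in the 1 Mb before its start, in the 1 Mb after its end and on its chromosome outside the gene, with 95% exact Poisson intervals as error bars (1 ChIP and 1 input library). WWOX stands above all 3 of its comparisons, FHIT lies between its flanks, and MACROD2 is far below the flank before its start.

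Each gene was also read against its own chromosome, since interval density differs between chromosomes. WWOX was at 1.37 times the rest of chromosome 16 (1.18 to 1.58), which had 129 intervals per Mb. FHIT was at 0.83 times the rest of chromosome 3 (0.71 to 0.96), which had 142. MACROD2 was at 0.99 times the rest of chromosome 20 (0.88 to 1.11), which had 146. When each chromosome was divided end to end into windows of the length of the gene, WWOX was the 9th densest of 69 windows on chromosome 16. The other windows there ran from 43.1 to 218 intervals per Mb with a median of 132. FHIT came 102nd of 127 windows on chromosome 3, where the others ran from 85.2 to 263 with a median of 135. MACROD2 came 15th of 26 on chromosome 20, level with 1 other window, where the others ran from 55.9 to 223 with a median of 152. All 3 genes thus lay inside the range of windows of their own size, and none was at an extreme of its chromosome.

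**Figure D2:**
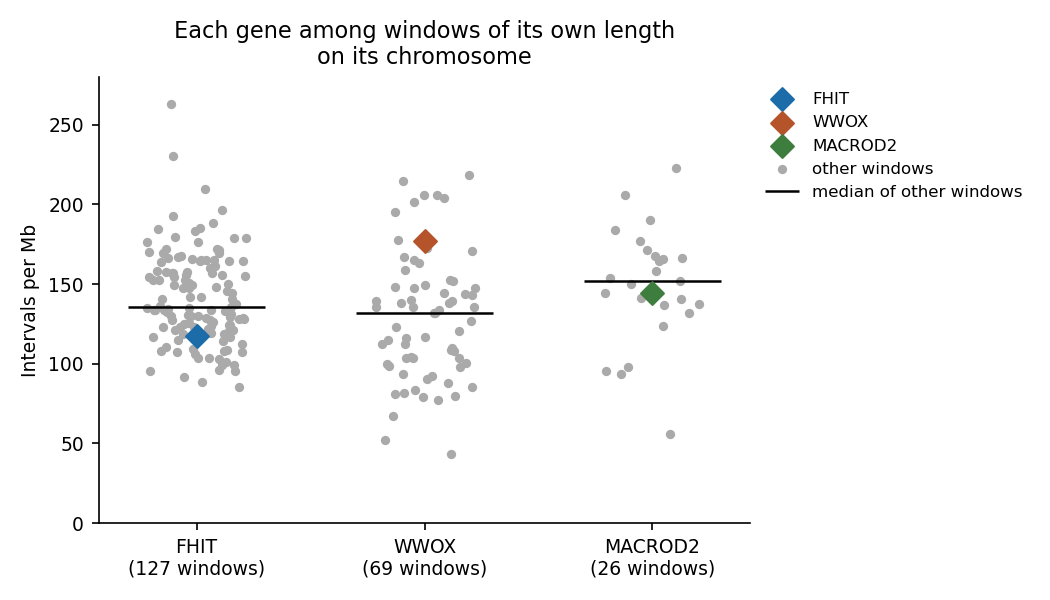
Intervals per Mb in each gene (coloured diamond) and in the other windows of the same length laid end to end on its chromosome (grey points, spread sideways for legibility), with the median of the other windows as a line. WWOX is 9th of 69 from the top, FHIT 102nd of 127 and MACROD2 15th of 26.

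Along the genes, local losses were looked for in 100 kb bins. A bin was counted as low at no more than 0.5 times the median bin of its chromosome, and as high at 2 times that median or more. The medians were 13 intervals per bin on chromosomes 3 and 20 and 12 on chromosome 16. No bin of any of the 3 genes was empty.

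The FHIT bins with the fewest intervals lay near its start. Its 15 bins, in the direction of transcription, held 6, 4, 8, 17, 13, 16, 8, 13, 13, 18, 8, 18, 8, 13 and 11 intervals. The first 2 of these bins were the low ones, or 13.3% of the bins, against a background of 6.42% of the 1946 bins of chromosome 3. The flank after the end of FHIT also held 2 low bins, of 10, while the flank before its start held 0 of 10. With bins counted from the gene start only 1 of 15 FHIT bins was low. How the share of low bins in FHIT compared with its surroundings thus depended on the side and on the bins used. The lowest was chr3:61000001-61100000 with 4 intervals, followed by chr3:61100001-61200000 with 6, and 4 bins tied at 8. No FHIT bin was high, where 5.81% of the chromosome 3 bins were. The highest were chr3:60000001-60100000 and chr3:60200001-60300000 with 18 each and chr3:60800001-60900000 with 17. Divided into 4 equal parts from the start, FHIT had 82.6 intervals per Mb in the first part (56.1 to 117), then 130.5 (96.5 to 173), 130.5 (96.5 to 173) and 125 (92.0 to 166). The first part was the lowest, though its interval overlapped those of the others. The median FHIT bin held 13 intervals, equal to the median bin of chromosome 3. The bin that holds the FHIT start, which was counted with the flank, and the next 2 outward were also below the chromosome median. They held 9, 8 and 12 intervals from the start outward, and the highest bin of that flank held 25.

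The longest stretch without an interval in FHIT lay across the low bins, so it restates their low counts and is not a separate observation. It spanned 60.6 kb (chr3:61055296-61115924), from 121 to 182 kb inside the gene, and ranked 27th among the 27532 gaps between intervals on chromosome 3. The next longest in FHIT was 40.4 kb (chr3:59829771-59870210), which ranked 206th and lay near the other end of the gene. Both were picked as the longest of the 177 gaps in FHIT, so a high rank follows in part from the choice. Intervals of at least 173 bp, the median width of the whole list, were missing from a longer stretch of 170.4 kb (chr3:60954921-61125288), the 8th longest of its kind on chromosome 3. That stretch contains the one of 60.6 kb, so it is not a separate observation either. It held 9 narrower intervals with a median width of 153 bp, so it was not free of intervals.

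WWOX had its densest bins at the start. Its 11 bins held 24, 27, 17, 10, 14, 11, 18, 22, 18, 14 and 18 intervals from start to end. The first 2 were high, or 18.2% of the bins, against 9.01% of the 788 bins of chromosome 16. These were chr16:78100001-78200000, which begins before the gene, with 24 intervals and chr16:78200001-78300000 with 27. The first lay exactly at the cutoff of 24, so the share of high bins in WWOX rests on few bins and a borderline count. The third highest was chr16:78800001-78900000 with 22. No WWOX bin was low, where 15.5% of the bins of chromosome 16 were. Its lowest were chr16:78400001-78500000 with 10, chr16:78600001-78700000 with 11 and chr16:78500001-78600000 with 14 (level with 1 later bin), so the dip followed the dense start. In 4 equal parts WWOX had 237 intervals per Mb in the first (183 to 302), 111 in the second (75.7 to 158), 187 in the third (139.6 to 245) and 173 in the last (127 to 229). The counting intervals of the first and second parts did not overlap. The longest stretch without an interval was 33.2 kb (chr16:78582631-78615837) and the next was 30.1 kb (chr16:78439243-78469305). These ranked 273rd and 339th among the 10264 gaps of chromosome 16, or within the longest 2.66% and 3.30%. They were picked as the longest of the 197 gaps in WWOX, so a high rank follows from the choice and does not show unusual length.

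MACROD2, the longest of the 3, was uneven, and the first of its 4 equal parts was the densest, though with an error interval that overlapped the others. From start to end its 20 bins held 20, 21, 11, 21, 14, 18, 16, 19, 12, 5, 11, 13, 13, 9, 15, 18, 16, 5, 9 and 23 intervals. The 2 low bins were chr20:14900001-15000000, near the middle of the gene, and chr20:15700001-15800000, near its end, with 5 intervals each. They made up 10.0% of the bins, close to the 10.7% of the 596 bins of chromosome 20 that were low. The third lowest was chr20:15300001-15400000 with 9, level with 1 later bin. No MACROD2 bin was high, against 8.22% on chromosome 20, and its highest were chr20:15900001-16000000 with 23 and chr20:14100001-14200000 and chr20:14300001-14400000 with 21 each. The flanks did hold high bins, 3 of 10 before the start and 2 of 10 after the end, and the highest of them had 43 intervals. In 4 equal parts MACROD2 had 175 intervals per Mb in the first (141 to 215), 139.96 in the second (109.5 to 176), 122 in the third (94.1 to 157) and 139.96 in the last (109.5 to 176), with overlapping intervals. The 2 longest stretches without an interval lay close together near the end of the gene, at 46.1 kb (chr20:15750164-15796213) and 38.4 kb (chr20:15809616-15847973). They ranked 56th and 93rd among the 8709 gaps of chromosome 20, but were picked as the longest of the 297 gaps in MACROD2. FLRT3, which encodes a cell adhesion protein, is the only protein-coding gene lying inside any of the 3 in the gene table.

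**Figure D3:**
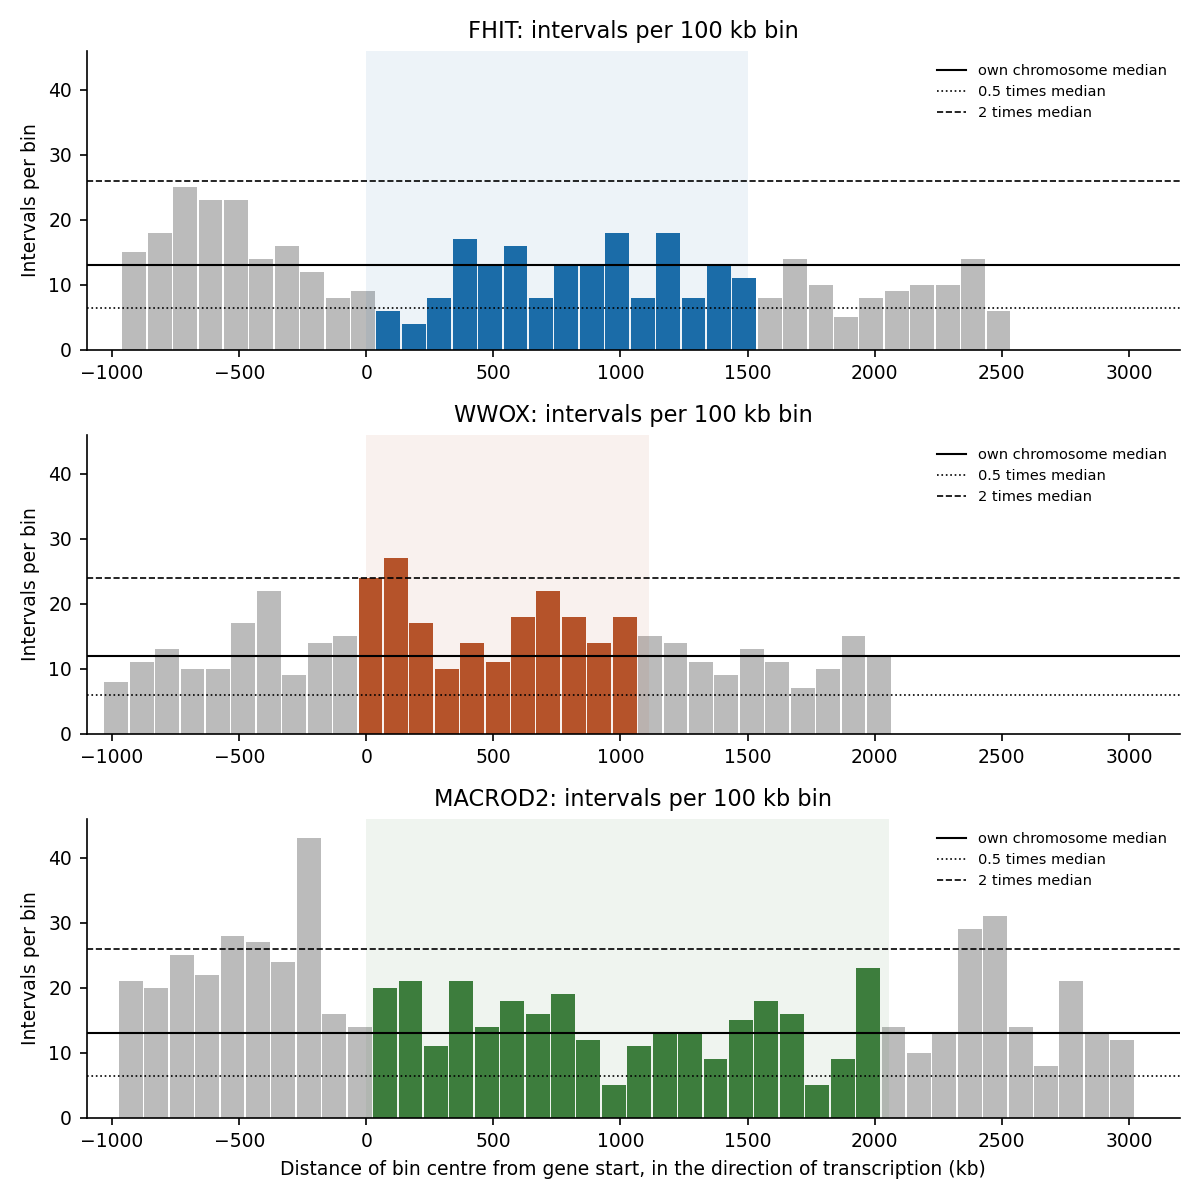
Intervals per 100 kb bin (vertical axis) by distance of the bin centre from the gene start in kb, in the direction of transcription, with bins of the gene in colour, bins of the 1 Mb flanks in grey and the gene shaded. The solid line is the median bin of the chromosome, the dotted line 0.5 times and the dashed line 2 times that median. FHIT begins with bins of 6 and 4, WWOX begins with bins of 24 and 27, and MACROD2 has 2 bins of 5.

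The spread between bins was smaller inside each gene than over its chromosome. Bins held 11.6 ± 4.47 intervals in FHIT (SD over 15 bins), against 14.1 ± 6.32 on chromosome 3. They held 17.5 ± 5.26 in WWOX (SD over 11 bins), against 13.0 ± 7.33 on chromosome 16, and 14.45 ± 5.20 in MACROD2 (SD over 20 bins), against 14.6 ± 7.28 on chromosome 20. The chromosome bins cover many more regions, so the 2 spreads are given as descriptions.

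Intervals in the 3 genes were mostly narrow, with medians close to those of their chromosomes. Median width was 165 bp in FHIT, against 171 bp on chromosome 3, 182 bp in WWOX, against 177 bp on chromosome 16, and 169 bp in MACROD2, against 179 bp on chromosome 20. The 95% interval of the median was 157 to 171 bp in FHIT, 168 to 210 bp in WWOX and 161 to 190 bp in MACROD2, and each overlapped that of its chromosome. The flanks of WWOX had a median of 166.5 bp (163 to 178), which also overlapped that of WWOX. Intervals of 200 to under 400 bp made up 37.6% of those in WWOX, against 32.5% in its flanks and 33.8% on chromosome 16. Those of 140 to under 170 bp made up 43.1% in WWOX, against 50.8% in its flanks and 45.2% on chromosome 16. In FHIT the narrow class of 140 to under 170 bp made up 52.8%, against 51.4% in its flanks and 48.0% on chromosome 3, and the class of 200 to under 400 bp made up 27.8%, against 35.4% in its flanks and 34.4% on chromosome 3.

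Wide intervals, of 400 bp or more, were a smaller share in MACROD2 than in the flank before its start and on its chromosome. They numbered 18 of 297 in MACROD2, or 6.06% (95% Wilson interval 3.87% to 9.38%), against 51 of 405 in its flanks, or 12.6% (9.71% to 16.2%), and 10.9% on chromosome 20 (10.3% to 11.6%). The flank before the start of MACROD2 had 14.9% (10.9% to 19.9%), while the flank after its end had 9.20% (5.66% to 14.6%), whose interval overlapped that of MACROD2. Per Mb that was 8.75 in MACROD2, against 25.5 in its flanks and 15.9 on chromosome 20. In FHIT 12 of 176 were this wide, or 6.82% (3.94% to 11.5%), against 6.97% on chromosome 3. In WWOX 15 of 197 were, or 7.61% (4.67% to 12.2%), against 10.5% on chromosome 16 (9.96% to 11.1%), a difference within the counting interval. The WWOX flanks were on the other side, at 5.28% (3.11% to 8.83%), also within it. The FHIT intervals covered 2.56% of the gene, against 3.25% of chromosome 3. Coverage was 4.11% of WWOX, against 3.21% of chromosome 16, and 3.30% of MACROD2, against 3.60% of chromosome 20.

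None of the 3 widest intervals of each gene lay in a low bin, which carries little information because low bins held few intervals. They held 6 and 4 of the 176 in FHIT and 5 and 5 of the 297 in MACROD2, and WWOX had no low bin. In WWOX the 3 widest were in the 2 high bins at its start, at 637 bp (chr16:78185760-78186396), 621 bp (chr16:78247886-78248506) and 572 bp (chr16:78227367-78227938). Those bins held 24 and 27 intervals, the first of them beginning before the gene, and the gene held 197. In FHIT the 3 widest were 591 bp (chr3:60737368-60737958), 569 bp (chr3:60378043-60378611) and 490 bp (chr3:60861521-60862010). In MACROD2 they were 616 bp (chr20:14534682-14535297), 597 bp (chr20:14573064-14573660) and 588 bp (chr20:14772140-14772727), between 559 and 796 kb from its start.

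**Figure D4:**
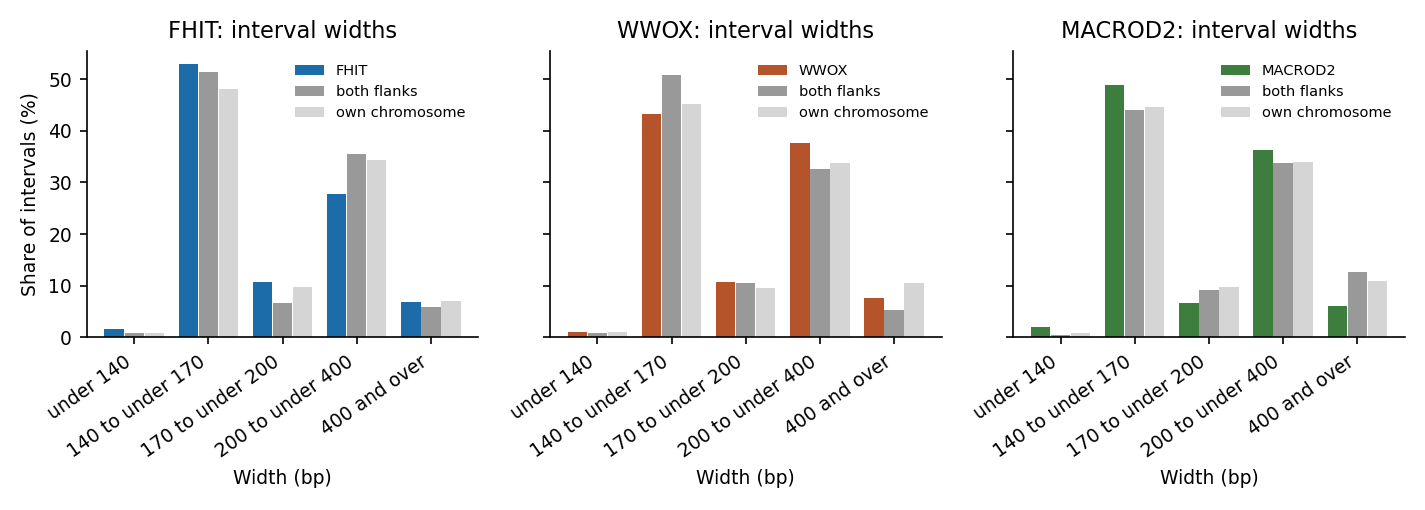
Share of intervals (%) in 5 classes of width in bp, for each gene, its 2 flanks of 1 Mb together and its chromosome. The class of 400 bp and over is 6.06% in MACROD2, against 12.6% in its flanks and 10.9% on chromosome 20. The class of 200 to under 400 bp is 37.6% in WWOX, against 32.5% in its flanks and 33.8% on chromosome 16.

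The longest run in which each interval lay within 2 kb of the next had 4 intervals in FHIT, 5 in WWOX and 5 in MACROD2. The median gap to the next interval was 5409 bp in FHIT, against 4148 bp on chromosome 3, 3654 bp in WWOX, against 4076 bp on chromosome 16, and 4486 bp in MACROD2, against 3696 bp on chromosome 20. Gaps under 1 kb made up 15.8% in FHIT (95% Wilson interval 11.2% to 21.9%), against 17.1% on chromosome 3. They made up 17.3% in WWOX (12.6% to 23.1%), against 18.9% on chromosome 16, and 16.5% in MACROD2 (12.7% to 21.1%), against 20.0% on chromosome 20. The higher density of WWOX thus went with a shorter typical gap and not with a larger share of close pairs.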

How the data were processed

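LSD2 ChIP and input chromatin from HepG2 cells were compared (1 library each), grouped by their source names. Per the submitters' processing notes, BWA and the hg19 build were used. Reads were trimmed and duplicates taken out by the authors, who then ran MACS, per the file headers, on LSD2 with input as control (fragment length 120 bp, enrichment factor 32, p-value cutoff 1e-05, local bias detection on). Tool versions and depth: not given in the sources used here. Values deposited by the authors are interval starts and ends in bases. Such a cutoff passes more and wider regions where more reads fall.

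The members and lists were chosen with earlier results of these data known. The 414095 lines gave 370863 distinct intervals. Starts were taken to count from 0 and are printed counted from 1. Gene ends came from the definition of the gene set, and strands, names and promoter sequences from RefSeq tables on GRCh38.p14, in which 3 of 3 genes matched. No position was converted between builds, so other genes were not placed on the intervals, and other fragile site genes were not analysed here. The length of a chromosome was taken between its outermost intervals, less any interval-free stretch over 500 kb, and bins or windows touching these were left out. Bins lay on a fixed 100 kb grid and belonged to a gene by their centre. The bins named are the 3 lowest and 3 highest of a gene, the intervals named the 3 widest and those nearest its ends, and the stretches named the 2 longest. Poisson and ratio intervals are exact, shares have Wilson intervals, all at 95%, and no test was run. Counting, binning and ratios were tested on simulated data. Python 3.11.15, pandas 2.3.3 and scipy 1.17.1 were used. Alternatives varied the intervals used, their assignment, the flanks and the bins.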

Additional observations from a re-analysis of the deposited data

How the results depend on the processing

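Of 102 alternative values for 21 results, 78 stayed within the counting interval of the reported value, or within 1.5 times it for counts and stretch lengths. The ratio of WWOX to its flanks ran from 1.30 to 1.67 over 10 alternatives and that to its chromosome from 1.29 to 1.47 over 5. MACROD2 stayed below its flanks in all 10, from 0.60 to 0.89, with 0.60 against the flank before its start alone and 0.89 against the flank after its end alone. FHIT against its flanks depended on the flank, at 0.73 for the one before its start, 1.22 for the one after its end and 1.18 for the ratio of median bins. The planned flank lengths also changed its direction, with 1.10 for flanks of 0.5 Mb and 0.84 for flanks of 2 Mb. The single-flank and median-bin values were chosen after seeing the data, and the cause of their spread was not tested.

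Keeping only intervals of at least the median width, which holds fewer intervals by construction, gave 48.6 per Mb in FHIT, 94.3 in WWOX and 69.5 in MACROD2. FHIT was then at 0.70 times its chromosome, with 5 low bins of 15, against 19.8% of the bins of chromosome 3. WWOX then had 4 high bins of 11, against 21.2% on chromosome 16. The longest stretch grew, by construction, to 170.4 kb in FHIT, 56.0 kb in WWOX and 106 kb in MACROD2. Leaving out intervals listed more than once gave 82.9 kb in MACROD2.

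Bin counts moved with the bins. With 50 kb bins FHIT had 7 low bins of 30, against 15.8% on chromosome 3, WWOX had 5 high bins of 22, against 11.1% on chromosome 16, and MACROD2 had 4 low bins and 1 high bin of 41, against 17.8% and 8.12% on chromosome 20. With 200 kb bins FHIT had 1 low bin of 7, against 3.70%, WWOX had 0 high bins of 5, against 6.36%, and MACROD2 had 0 low bins of 10, against 8.11% of the bins of its chromosome. Counting bins from the gene start left FHIT with 1 low bin of 15, or 6.67%, close to the 6.27% of chromosome 3. Counting every line gave MACROD2 1 high bin of 20, against 9.90%. No paired analysis was possible because the ChIP and the input are single libraries. Depth is not known, and a stretch without an interval can hold too few reads to pass the cutoff.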

Other observations

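Lines listed more than once were unevenly spread over the 3 genes, and in WWOX and MACROD2 most came in blocks. In FHIT 4 of 176 intervals were repeated, or 2.27% (95% Wilson interval 0.887% to 5.70%), against 9.49% on chromosome 3, and 2 of the 4 stood next to each other. The flank after the end of FHIT had 24 of 96, and all 24 followed one another without a break (chr3:58818935-58978767). In WWOX 21 of 197 intervals were repeated, or 10.7% (7.08% to 15.7%), against 14.7% on chromosome 16, and 20 of the 21 stood in blocks of at least 2 successive repeated intervals. In MACROD2 31 of 297 were, or 10.4% (7.45% to 14.4%), against 8.48% on chromosome 20, and 30 of the 31 stood in such blocks. The longest block had 11 intervals in MACROD2 and 8 in WWOX. Over whole chromosomes, 87.3% of repeated intervals on chromosome 3, 86.4% on chromosome 16 and 83.8% on chromosome 20 stood in blocks. How the repeated lines arose was not tested.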
